A study of Homo sapiens with 5 samples.

Results

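The chromosome 19 microRNA cluster, C19MC, was read in Caco2 cells through 39 of the 734 miRNA probes of the nCounter Human v2 panel. Its members were chosen by name: every human probe for miR-498, miR-512, miR-515 to miR-527, miR-1283 or miR-1323, with any letter or arm suffix. The rule itself uses no measured value. The 39 probes stand among 654 human probes and 80 probes for viral miRNAs, and 3 of them are joint probes that cover more than 1 miRNA, so that the 39 probes carry 44 miRNA names.

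Caco2 is an established line from a human colorectal adenocarcinoma that forms a polarized epithelium in culture. All samples were Caco2 cells that had been infected with an shRNA construct and selected: 2 samples had received a non-target shRNA (NT replicates 1 and 3) and 3 an shRNA against PLEKHA7 (shPLEKHA7 replicates 1, 2 and 3). PLEKHA7 is a protein of the apical junctions of epithelial cells that has been linked to local control of miRNA processing, and the study asked how its depletion affects miRNA levels. Each sample was 1 lane of total RNA, and the design text states that the RNA came from independent sets of infections. The shRNA sequence is not given in the sources used here, so effects of one hairpin and effects of PLEKHA7 loss cannot be told apart. The panel has no probe for PLEKHA7, so its depletion was not checked here. In 2 shPLEKHA7 samples, replicates 2 and 3, the source label carries another PLEKHA gene number than the title. Groups followed the titles, and values without both samples are given where the comparison is made. By the endings of the column names, the NT lanes come before the shPLEKHA7 lanes, so an effect of lane position cannot be told apart from one of group.

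C19MC is a primate-specific run of related miRNA genes. It is imprinted and read from the paternal chromosome, and its miRNAs are abundant in the trophoblast of the placenta. Most differentiated tissues keep the cluster silent, while pluripotent stem cells and some tumours are known to express it. A miRNA pairs with its targets mainly through its seed, bases 2 to 8 from the 5′ end. Many C19MC members carry seeds of the AAGUGC kind, which they share with miR-372 and miR-373 just downstream, with miR-302 and, shifted by a base, with the miR-17 family.

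In the RefSeq table (GRCh38.p14) 46 miRNA genes of the cluster lie on the plus strand of chromosome 19, from MIR512-1 to MIR519A2. The next hairpins after them are those of miR-371, miR-372 and miR-373. The target of 36 of the 39 probes equals a RefSeq mature miRNA. The 8 probe targets printed here are those that exceeded the lanes' background in at least 2 samples and so carry the comparison. They are given 5′ to 3′ as RNA, with the seed in capitals.
miR-1283: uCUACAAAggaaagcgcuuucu
miR-526a, miR-518d-5p and miR-520c-5p: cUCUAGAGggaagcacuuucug
miR-518f: gAAAGCGCuucucuuuagagg
miR-512-5p: cACUCAGCcuugagggcacuuuc
miR-525-3p: gAAGGCGCuucccuuuagagcg
miR-517c and miR-519a: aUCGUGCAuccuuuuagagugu
miR-520d-5p, miR-527 and miR-518a-5p: cUACAAAGggaagcccuuuc
miR-520g: aCAAAGUGcuucccuuuagagugu

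These 8 targets carry 8 different seeds. By exact match of the whole target to RefSeq mature miRNAs, miR-1283 lies at chr19:53688494-53688515 in MIR1283-1 and again at chr19:53758245-53758266 in MIR1283-2. The miR-526a target equals mature miRNAs of 4 hairpins, at chr19:53706266-53706287 (MIR526A1), chr19:53707468-53707489 (MIR520C), chr19:53726928-53726949 (MIR526A2) and chr19:53734892-53734913 (MIR518D), and the 3 named miRNAs are identical over the target. The target for miR-512-5p lies at chr19:53666692-53666714 and chr19:53669176-53669198, in the first hairpins of the cluster. Single matches were found for miR-525-3p (chr19:53697584-53697605), miR-520d-5p (chr19:53720111-53720130), miR-520g (chr19:53722220-53722243) and miR-517c (chr19:53741369-53741390). Longer or shorter forms from other genes of the cluster were not searched for, so a single match does not tie a count to that gene. All are mature miRNAs within their hairpin genes. Where a miRNA has several loci or a probe several miRNAs, the count cannot say which was expressed.

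The joint probes are not all exact for each of their names. Counted from 1 at the 5′ end of the target, miR-519a differs from the printed miR-517c target by U2A and C3A, both within the seed. Likewise miR-518a-5p differs from the miR-520d-5p target by A3G.
miR-519a: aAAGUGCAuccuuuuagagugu
miR-518a-5p: cUGCAAAGggaagcccuuuc

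The raw value is a count of barcoded probes. Each lane's limit of detection was set at the mean plus 2 SD of its 8 negative-control probes, which came to 13.4 and 20.6 counts in NT replicates 1 and 3 and to 24.5, 11.0 and 20.2 counts in shPLEKHA7 replicates 1, 2 and 3. A probe entered the comparison between groups where its count exceeded the limit in at least 2 of the 5 samples. Total miRNA counts per lane lay between 32138 and 58298. As a check of the cell type, all 8 intestinal and epithelial marker probes (the miR-192, miR-194 and miR-200 families) passed this filter and 7 were above the limit in every lane, summing to 1426 to 2886 counts. Of 6 blood-cell marker probes 2, and of 8 stromal and endothelial ones 2, were above the limit in every lane, with sums of 95 to 157 and of 88 to 178 counts. Of 9 marker probes of pluripotent cells 6 were above the limit in every lane, with sums of 3544 to 6853 counts, most of it from miR-371 to miR-373 (3388 to 6634).

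Most of C19MC was not seen above background in Caco2. In 30 of the 39 probes no lane exceeded its limit. Only 4 probes exceeded it in all 5 lanes (10.3%), against 121 of 654 human probes (18.5%) and 6 of 80 viral probes (7.5%). In single lanes, 5 members (12.8%) were above the limit in NT replicate 1 and 4 (10.3%) in NT replicate 3. The shPLEKHA7 lanes had 4 (10.3%), 8 (20.5%) and 8 (20.5%) in replicates 1, 2 and 3. The probes for miRNAs encoded by viruses gave 13.8%, 8.75%, 12.5%, 25.0% and 16.2% in the same lanes. The human probes gave 26.0%, 21.6%, 22.8%, 33.6% and 27.5%. In every lane the members' share was below that of all human probes and within 5 percentage points of that of the viral probes. The exact 95% intervals of members and human probes overlapped in each lane. Replicate 2 of shPLEKHA7, which had the lowest limit, had the highest share in all 3 classes, in the members jointly with replicate 3.

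**Figure D1:**
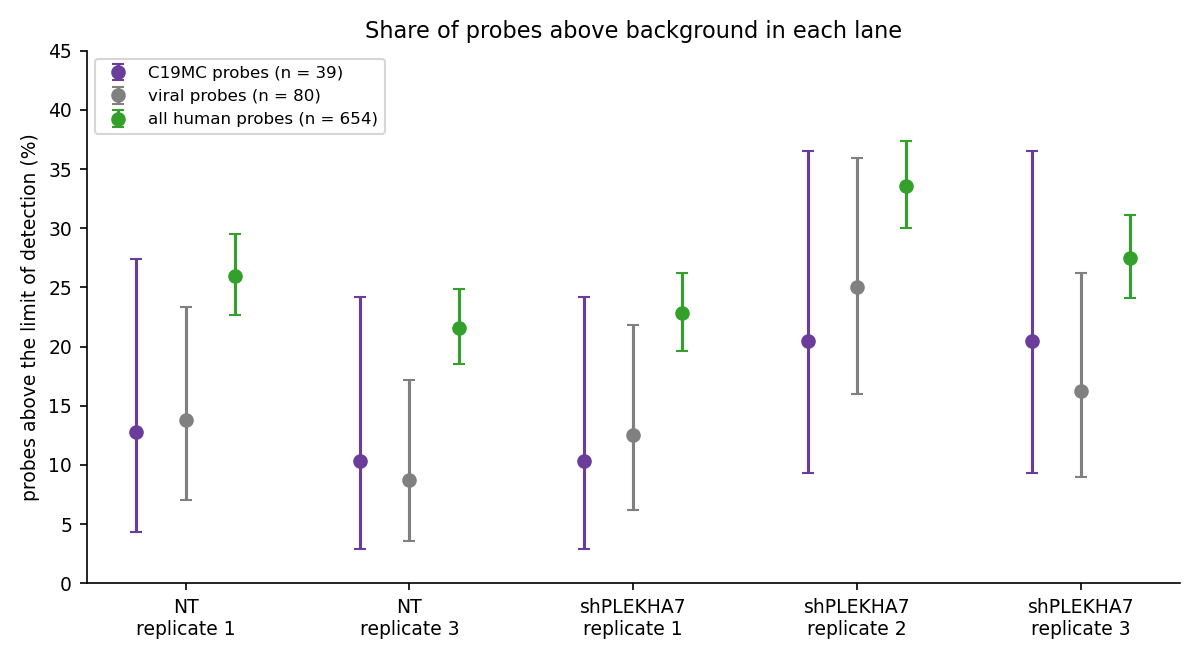
Percent of probes above the lane's limit of detection (vertical axis) in each of the 5 lanes, for the 39 C19MC probes, the 80 viral probes and the 654 human probes; error bars are exact 95% binomial intervals, which cover counting error over probes only. The C19MC share lies between 10.3% and 20.5% and below the share of human probes in each lane.

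Summed counts gave the same picture of a low signal. The 39 members summed to 383 counts in NT replicate 1 and 462 in NT replicate 3. In shPLEKHA7 replicates 1, 2 and 3 they summed to 660, 449 and 625. As a share of all miRNA counts this was 1.10% (exact 95% interval 0.99 to 1.21) and 0.917% (0.836 to 1.00) in the NT lanes. It was 1.38% (1.27 to 1.48), 1.40% (1.27 to 1.53) and 1.07% (0.99 to 1.16) in the shPLEKHA7 lanes. The intervals cover counting error only, and that of shPLEKHA7 replicate 3 overlaps those of both NT lanes. The mean count per member was 9.82, 11.8, 16.9, 11.5 and 16.0 over the 5 lanes, beside 8.86, 10.6, 14.9, 9.91 and 14.3 per viral probe and 6.12, 7.5, 11.1, 4.5 and 8.5 per negative control. The viral mean was thus high in the same lanes as the member mean, and the part of background in these sums was not tested. The 4 probes detected everywhere made up 36.5% to 42.6% of the members' sum in a lane. The other 35 probes averaged 6.66, 7.57, 11.9, 8.03 and 11.3 counts.

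**Figure D2:**
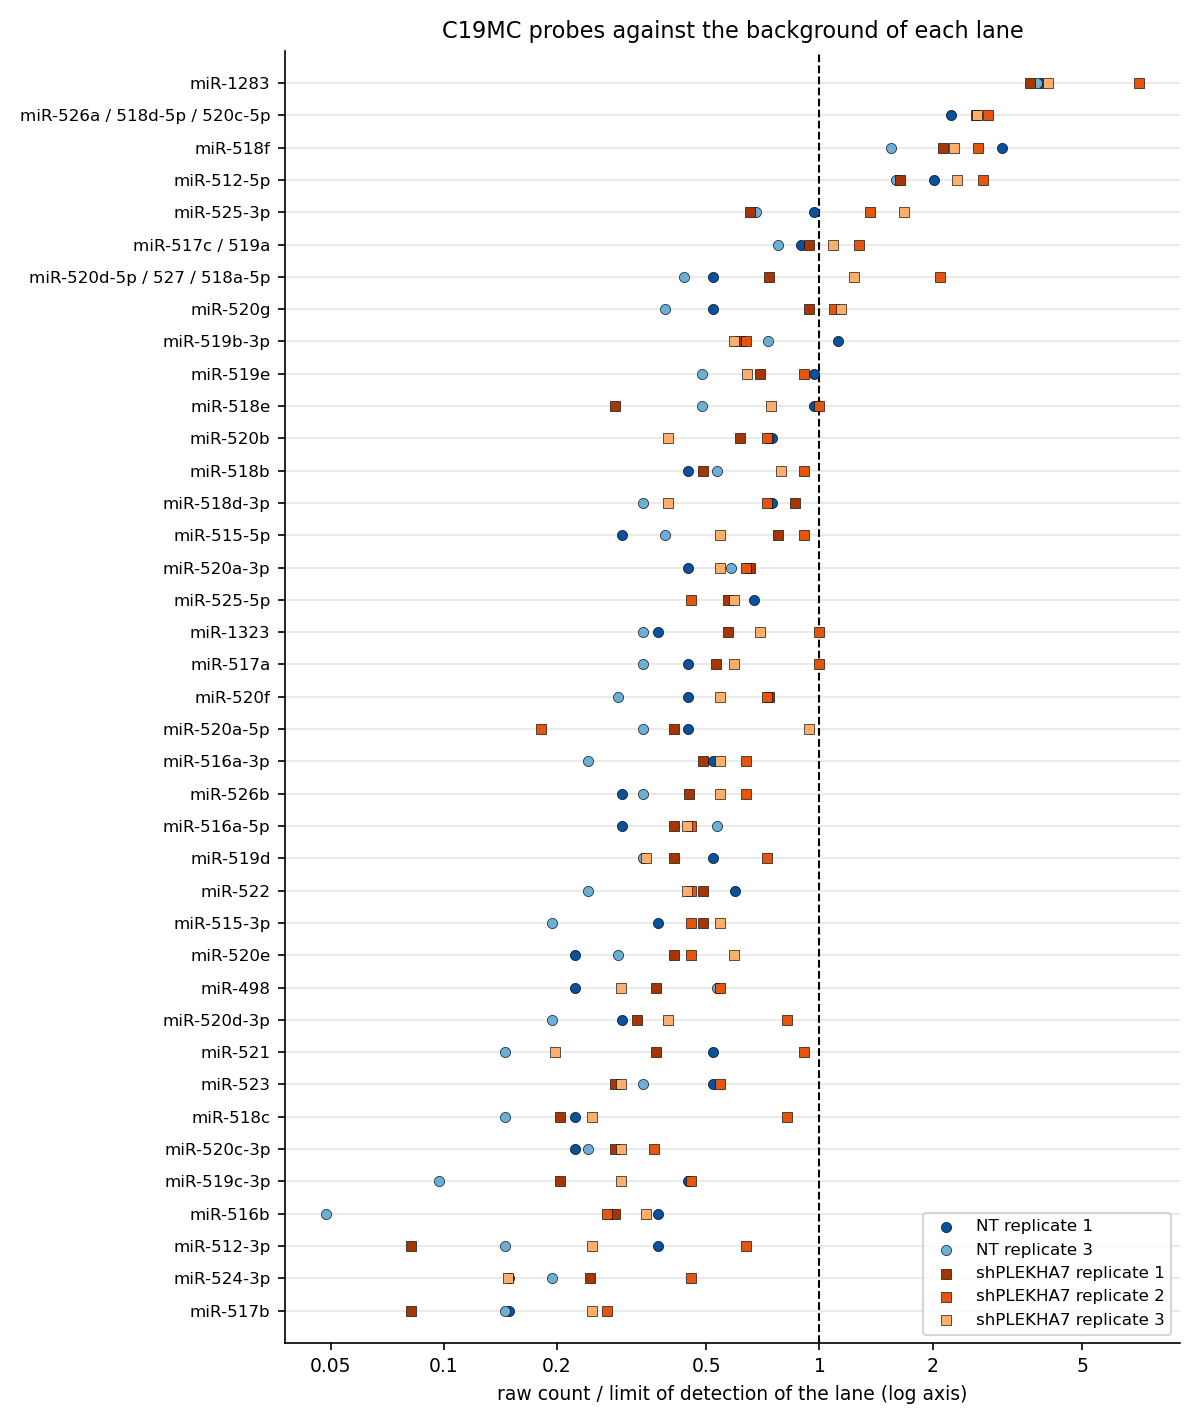
Raw count divided by the lane's limit of detection for each of the 39 C19MC probes (rows, ordered by mean raw count) in the 5 lanes; the line marks a ratio of 1. Only miR-1283, the miR-526a joint probe, miR-518f and miR-512-5p lie above 1 in every lane, and 30 probes lie below it throughout.

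The highest count in the cluster belonged to miR-1283. It read 52 and 78 counts in the NT lanes and 89, 78 and 82 counts in shPLEKHA7 replicates 1, 2 and 3. That is 3.64 to 7.09 times the lane's limit. No viral probe had a higher mean count.

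The joint probe for miR-526a, miR-518d-5p and miR-520c-5p followed with 30 and 54 counts in NT and 64, 31 and 53 counts in shPLEKHA7. The NT and shPLEKHA7 lanes overlapped, and the lowest counts were in the 2 lanes with the fewest total counts. In mean count, 2 of the 80 viral probes stood higher.

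For miR-518f the counts were 41 and 32 in NT and 52, 29 and 46 in shPLEKHA7, again overlapping. The 5′ arm of miR-512, described as a suppressor of the survival factor MCL1 in gastric cancer cells, read 27 and 33 counts in NT and 40, 30 and 47 in shPLEKHA7. Of the viral probes 5 had a higher mean than miR-518f, and 5 a higher mean than miR-512-5p. A stricter background, the 95th percentile of the viral probes in the same lane (28.2 to 50.1 counts), was exceeded in every lane by miR-1283 and the miR-526a joint probe alone among the members. That compares with 71 human probes and 1 viral probe.

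A further 4 members passed the filter without exceeding the limit in either NT lane. Each did so in shPLEKHA7 replicates 2 and 3. The joint probe for miR-520d-5p, miR-527 and miR-518a-5p read 7 and 9 counts in NT and 18, 23 and 25 in shPLEKHA7. Counts for miR-520g, which has been described in drug resistance of colorectal cancer cells, were 7 and 8 in NT and 23, 12 and 23 in shPLEKHA7. In both, every shPLEKHA7 count was above both NT counts. The probe for miR-525-3p read 13 and 14 counts in NT and 16, 15 and 34 in shPLEKHA7. The joint probe for miR-517c and miR-519a, which belong to the most abundant miRNAs of the placenta, read 12 and 16 counts in NT and 23, 14 and 22 in shPLEKHA7. These are counts near the limit: the largest excess was in the miR-520d-5p joint probe in shPLEKHA7 replicate 2, at 2.09 times the limit. Just inside the filter, the miR-520g probe exceeded the limit by 1.09 times in replicate 2 and 1.14 times in replicate 3.

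Just outside it was miR-519b-3p, the only member above the limit in exactly 1 lane: it read 15 and 15 counts in NT, where replicate 1 passed, and 15, 7 and 12 in shPLEKHA7. Next by mean count came miR-519e with 13 and 10 counts in NT and 17, 10 and 13 in shPLEKHA7. Tied after it were miR-518e, with 13 and 10 against 7, 11 and 15, and miR-520b, with 10 and 15 against 15, 8 and 8. In shPLEKHA7 replicate 2 the probes for miR-518e, miR-1323 and miR-517a had 11 counts, at 0.9998 times the limit. The 31 members that did not pass had between 1 and 21 counts in any lane. Examples, chosen after their values were seen, are miR-517a (6 and 7 counts in NT, 13, 11 and 12 in shPLEKHA7), miR-512-3p (5 and 3 against 2, 7 and 5) and miR-1323 (5 and 7 against 14, 11 and 14).

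The comparison between groups asked whether C19MC members differed in shPLEKHA7 from NT. It was run with edgeR's quasi-likelihood test on the raw counts of the 204 probes that passed the filter, with TMM scaling and Benjamini-Hochberg adjustment over all 204. Of the 39 members 8 entered (20.5%), against 189 of 654 human (28.9%) and 15 of 80 viral probes (18.8%). None of the 8 members was called at an adjusted p below 0.05 by edgeR. Over all tested probes 13 were called (6.37%), of which 5 were higher (2.45%) and 8 lower (3.92%) in shPLEKHA7. At an unadjusted p below 0.05 there were 2 of 8 members, and 48 of 204 probes (23.5%). The DESeq2 Wald test gave an adjusted p to miR-1283 alone among the members. Run without its independent filtering, a setting added after seeing the data, it gave one to all 8 and called 0 (smallest DESeq2 adjusted p 0.18). The p-values measure the spread between these samples, and nothing beyond the design text's independent infections says how far apart the samples are.

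The 2 members at an unadjusted p below 0.05 were those with the fewest counts in NT. The joint probe for miR-520d-5p, miR-527 and miR-518a-5p had 8.9 and 8.5 normalized counts in NT and 16.4, 31.6 and 18.9 in shPLEKHA7. Its mean was 8.67 ± 0.291 (SD, n = 2) against 22.3 ± 8.14 (SD, n = 3), a log2 fold change of 1.29 (SE 0.44, edgeR adjusted p = 0.115). For miR-520g the normalized counts were 8.9 and 7.5 in NT and 21.0, 16.5 and 17.4 in shPLEKHA7. The means were 8.2 ± 0.956 (SD, n = 2) and 18.3 ± 2.37 (SD, n = 3), a log2 fold change of 1.17 (SE 0.41, edgeR adjusted p = 0.119). In both probes the groups did not overlap, and both NT values were close to the normalized negative-control means of their lanes, 7.76 and 7.05. The shPLEKHA7 lanes had normalized negative-control means of 10.1, 6.18 and 6.43, above both NT lanes in replicate 1 and below both in replicates 2 and 3. The normalized mean of the viral probes was 11.2 and 9.99 in NT and 13.6, 13.6 and 10.8 in shPLEKHA7. The part of either background in the members' values was not tested.

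The remaining members that passed through shPLEKHA7 lanes alone had smaller differences. The probe for miR-525-3p, a miRNA described in liver cancer cell migration, had 16.5 and 13.2 normalized counts in NT and 14.6, 20.6 and 25.7 in shPLEKHA7, so that the groups overlapped. Its log2 fold change was 0.49 (SE 0.36, edgeR adjusted p = 0.476). The miR-517c and miR-519a joint probe had 15.2 and 15.0 against 21.0, 19.2 and 16.6, without overlap, at 0.31 (SE 0.32, edgeR adjusted p = 0.622).

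Among the members detected in every lane, miR-1283 had 65.9 and 73.3 normalized counts in NT and 81.2, 107.2 and 62.0 in shPLEKHA7. The NT values lay within the shPLEKHA7 range, and the log2 fold change was 0.22 (SE 0.24, edgeR adjusted p = 0.638). The probe for miR-512-5p had 34.2 and 31.0 against 36.5, 41.2 and 35.5, without overlap, at 0.20 (SE 0.21, edgeR adjusted p = 0.648). For the miR-526a joint probe the values were 38.0 and 50.8 against 58.4, 42.6 and 40.1, overlapping, at 0.07 (SE 0.24, edgeR adjusted p = 0.899). For miR-518f, at 52.0 and 30.1 against 47.4, 39.8 and 34.8, the NT values enclosed all shPLEKHA7 values, and the log2 fold change was 0.02 (SE 0.27, edgeR adjusted p = 0.997). Differences well above these standard errors could also go uncalled with 2 and 3 samples. The miR-520d-5p joint probe, at 1.29 (SE 0.44), had an edgeR adjusted p of 0.115.

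**Figure D3:**
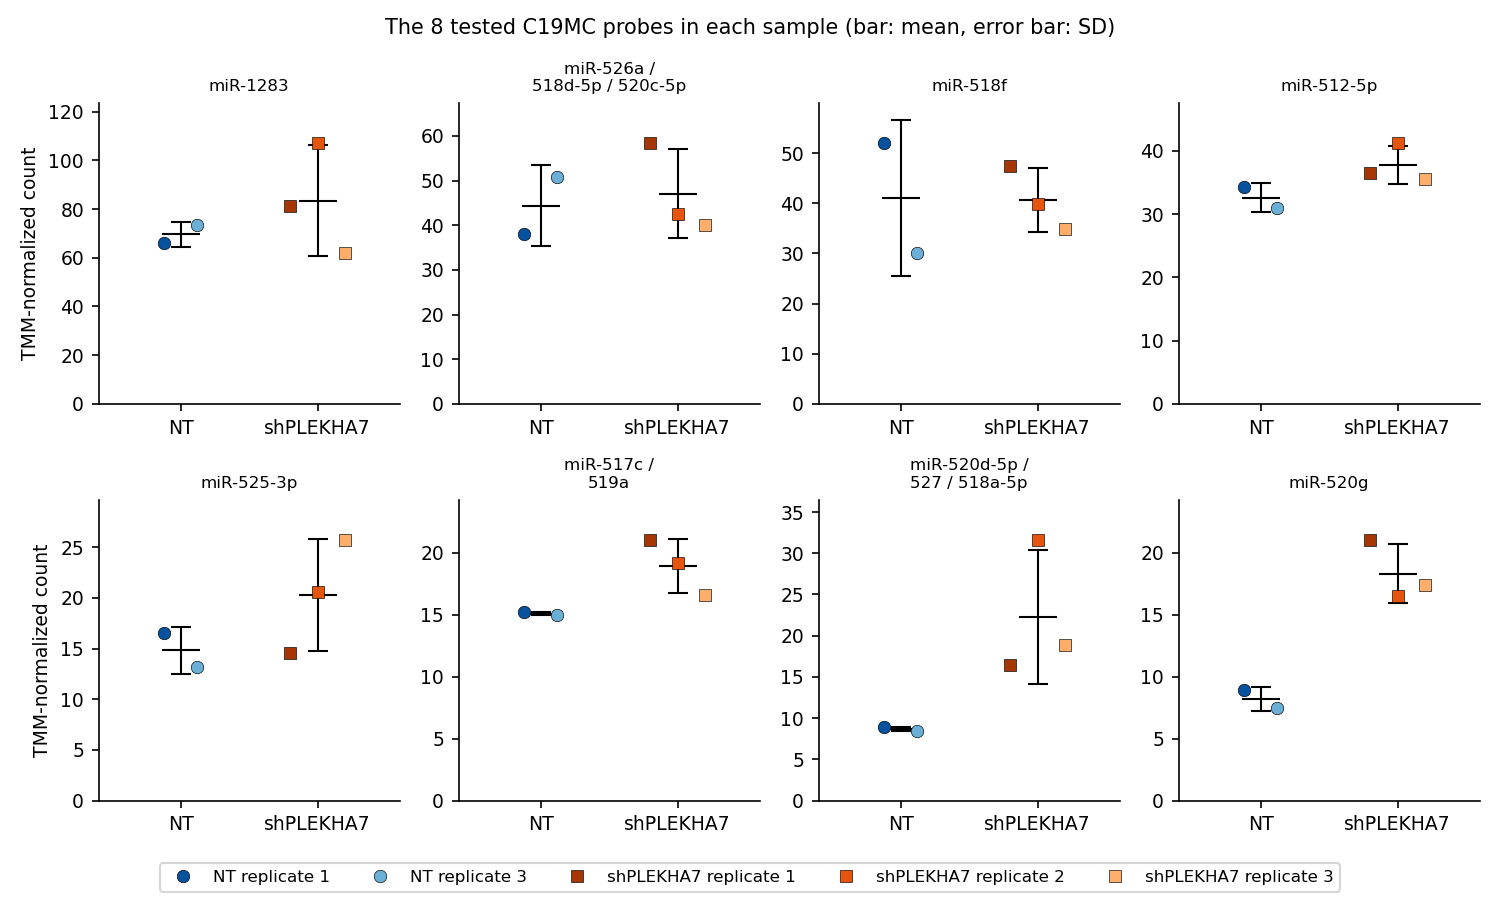
TMM-normalized count (vertical axis, starting at 0, with its own range in each panel) of the 8 tested C19MC probes in the 2 NT and 3 shPLEKHA7 samples; points are samples, bars the group mean and error bars the SD. The groups are apart in miR-512-5p and in the miR-517c, miR-520d-5p and miR-520g probes and overlap in the other 4.

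In all, the groups did not overlap, with shPLEKHA7 higher, in 4 of the 8 tested members, where 26.0% of all tested probes did so. The median log2 fold change of the 8 was 0.27, that of all tested probes 0.06; all 8 were above 0, as were 56.4% of all tested probes. Since 4 of the 8 had passed through shPLEKHA7 lanes alone, and the filter is more easily met by 3 lanes than by 2, none of these values can speak for the cluster. The fit was therefore also read without a filter, over all 734 miRNA probes. There, 0 of the 39 members were called by edgeR, with 10 probes called in all (1.36%), 1 higher (0.136%) and 9 lower (1.23%), and a smallest adjusted p of 0.172 among the members. At an unadjusted p below 0.05 there were 2 members, against 83 of the 734 probes (11.3%). Log2 fold changes of the 39 ran from -0.75 to 1.12 with a median of 0.16, beside 0.19 for the 80 viral probes, -0.01 for the other human probes and 0.01 for all probes. They were above 0 in 26 members (66.7%) and in 50.7% of all probes. Of the 80 viral probes 56.2% were above 0. Whether groups were apart was read over all 734 probes on counts with the TMM scaling of the filtered fit. On that scaling miR-1283 had a log2 fold change of 0.22, against 0.04 in the fit without a filter. Counts of groups apart therefore still depend on the filter. With shPLEKHA7 higher they were 13 members, 17 viral probes and 21.9% of all probes. With shPLEKHA7 lower there was 1 member, miR-519b-3p, and 9.13% of all probes.

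**Figure D4:**
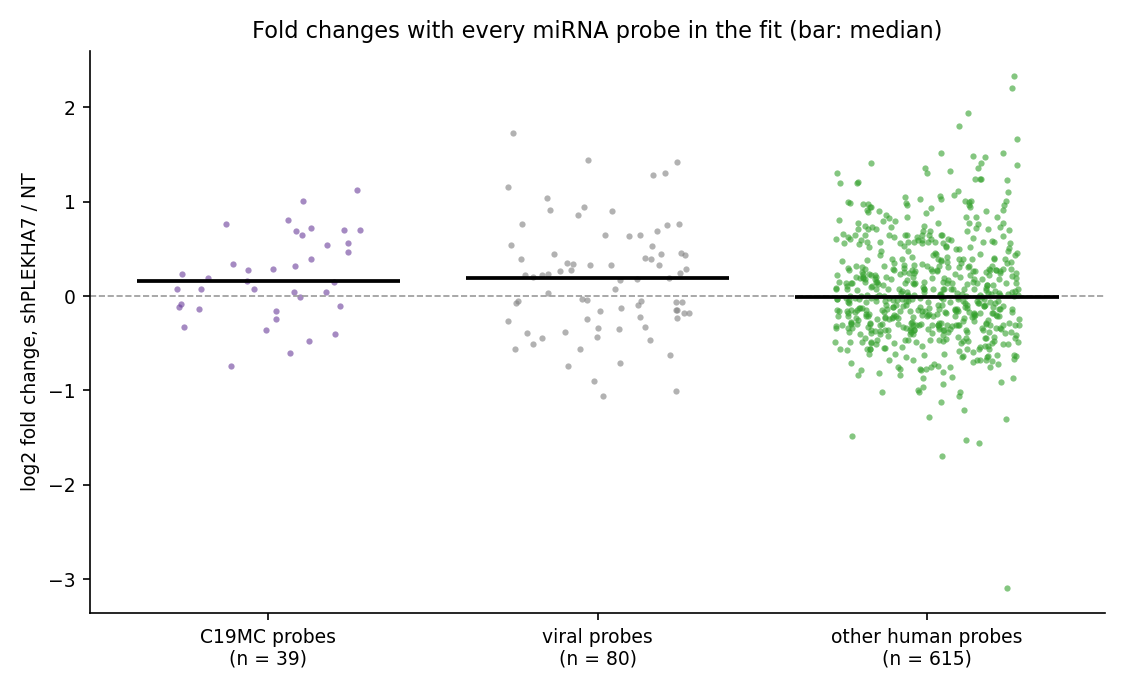
Log2 fold change, shPLEKHA7 against NT, from the edgeR fit without a filter for the C19MC probes, the viral probes and the other human probes. The 39 C19MC values run from -0.75 to 1.12 around a median of 0.16, and the viral median is 0.19.

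Leaving out the 2 shPLEKHA7 samples with the differing source label left replicate 1 against both NT samples. In that fit the spread comes from the NT samples alone, and the lone shPLEKHA7 sample is assumed to vary like them. The 4 members detected in every lane passed the filter, 0 were called by edgeR, and their smallest adjusted p was 0.659. The miR-520d-5p and miR-520g probes did not pass it, so this fit says nothing about them. Normalized sums of the spike-in controls were 9741 and 10017 in NT and 12782, 14658 and 10766 in shPLEKHA7, so that spike-ins moved with the group, and their part in the members' values was not tested. Scaling by them in place of TMM shifted the median of all tested probes to -0.27. The members' median became -0.07, and 3 of 8 members had a log2 fold change above 0. The direction of miR-1283, miR-512-5p, miR-518f and the miR-526a and miR-517c joint probes turned to below 0. For the miR-520d-5p joint probe the log2 fold change stayed between 0.72 and 2.99 over the 17 alternatives in which it could be fitted, 16 of which gave an adjusted p. It was called in 2 of these: with limma on log2(deposited value + 1), at 1.14 (limma adjusted p = 0.0352), and without shPLEKHA7 replicate 1, at 1.45 (edgeR adjusted p = 0.0422). This probe had passed the filter through the shPLEKHA7 lanes where it was high, which holds for both calls, and in the fit without a filter its adjusted p was 0.172. For miR-520g the range was 0.61 to 3.19 with 0 calls in the 16 alternatives that gave an adjusted p. Both upper values came from subtracting the negative-control mean.

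**Figure D5:**
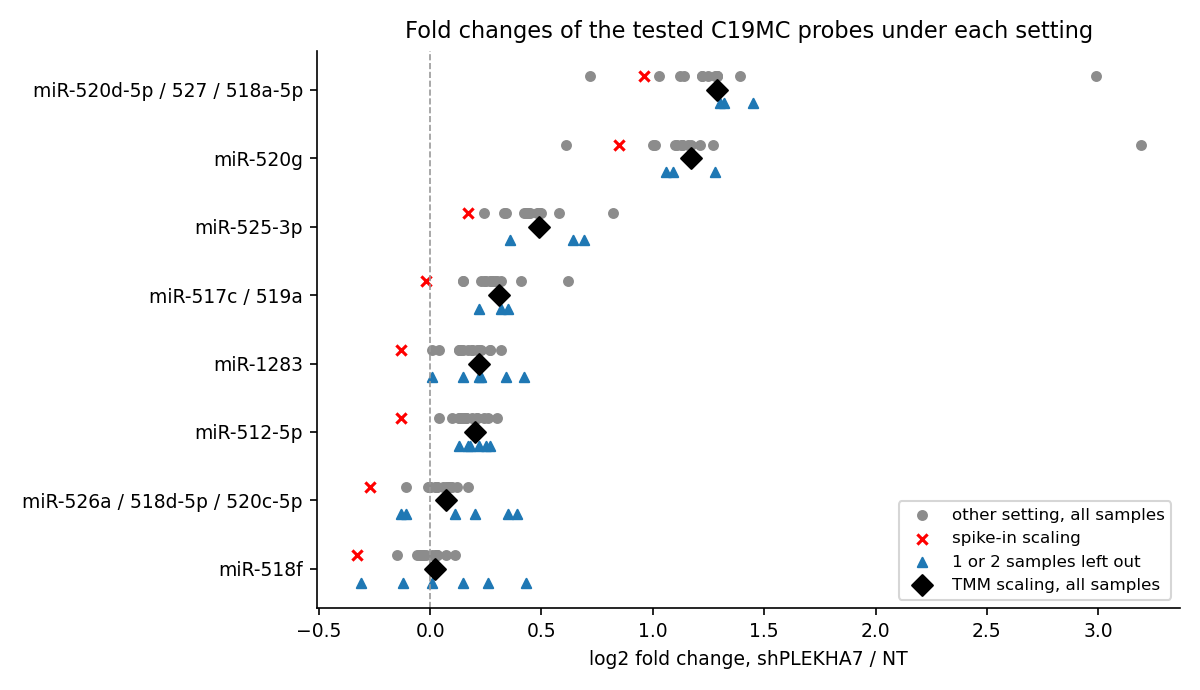
Log2 fold change of the 8 tested C19MC probes, shPLEKHA7 against NT, under the alternative settings in which each could be tested, with the value as reported marked. The miR-520d-5p and miR-520g probes stay above 0 throughout, and miR-518f and the miR-526a joint probe lie on both sides of 0.

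Members were compared by sequence because near-identical probes may share counts. Of the 39 targets 14 were within 2 edits of another member, and 5 within 1. The printed miR-517c target is 1 edit from miR-517a, which read 6 to 13 counts where the joint probe read 12 to 23. The miR-526a target is 2 edits from miR-526b, which read 4 and 7 counts in NT and 11, 7 and 11 in shPLEKHA7, against 30 to 64 for miR-526a. The targets with the lower count are shown for this comparison.
miR-517a: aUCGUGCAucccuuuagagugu
miR-526b: cUCUUGAGggaagcacuuucugu

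The 39 targets held 27 distinct seeds, of which 20 belonged to 1 member each. Of the 7 shared seeds, 3 had a tested member. Seed AAAGCGC was common to miR-518b, miR-518c, miR-518d-3p and miR-518f, and among these miR-518f alone passed the filter. Its partners read 6 to 16 counts (miR-518b), 3 to 9 (miR-518c) and 7 to 21 (miR-518d-3p). Seed AAGGCGC paired miR-525-3p with miR-524-3p, which read 2 to 6 counts. The partners of tested members, printed to show the common seed and the differing 3′ part, were these.
miR-518b: cAAAGCGCuccccuuuagaggu
miR-518c: cAAAGCGCuucucuuuagagugu
miR-518d-3p: cAAAGCGCuucccuuuggagc
miR-524-3p: gAAGGCGCuucccuuuggagu

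The most frequent seed in the cluster, AAGUGCU, belonged to 5 members (miR-520a-3p, miR-520b, miR-520c-3p, miR-520d-3p and miR-520e), none of which passed the filter. It is also the seed of 7 human probes outside the cluster. Among those, miR-373 of the neighbouring cluster read 1927 and 2786 counts in NT and 2580, 1534 and 2923 in shPLEKHA7, and miR-372 read 1597 and 2633 against 2025, 1174 and 2618. The miR-520 members with this seed read 3 to 16 counts. All 4 probes for miR-371 to miR-373 were above the limit in every lane, and 0 were called by edgeR (median log2 fold change -0.13). The seed was thus present in these cells in large counts from the neighbouring genes and at background from C19MC. A comparison of counts between probes also carries their differing capture efficiency.
miR-520b: aAAGUGCUuccuuuuagaggg
miR-372: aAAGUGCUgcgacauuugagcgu
miR-373: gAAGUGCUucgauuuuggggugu

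Similarly miR-519d, at 7 and 7 counts in NT and 10, 8 and 7 in shPLEKHA7, shares AAAGUGC with the miR-17 family, of which miR-20a and miR-20b, read by a single probe, had 1573 to 3129 counts. Of the probes for miR-17-92 and its paralogs, 10 of 11 were tested and 1 was called higher, where 2.45% of all tested probes were. Of the probes for miR-302 and miR-367, 4 of 5 were tested and 2, miR-302a and miR-302d, were called higher in shPLEKHA7 (median log2 fold change 0.84). The miR-302c and miR-302d probes had passed the filter through shPLEKHA7 lanes alone. For miR-302d the counts were 10 and 18 in NT and 35, 24 and 45 in shPLEKHA7. Its call and the median of the list thus cannot be read apart from the filter. In the fit without a filter, edgeR called 0 in either list, with smallest adjusted p of 0.0655 for miR-17-92 and its paralogs and 0.149 for miR-302 and miR-367. In the other large imprinted miRNA cluster, on 14q32, 8 of 52 probes were tested (15.4%) and 0 called (median 0.12).

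Both the 5′ and the 3′ parts of the members recur. The motifs were searched on the miRNA strand only and chosen after the sequences were seen. Shares of all human targets include the members. UUUAGAG was found in 17 of the 39 members (43.6%), in 2.75% of all human targets and in 0.163% of those outside the cluster. The run AAGUGC was found in 12 members (30.8%), 3.82% of all human targets and 2.11% of those outside the cluster. It overlaps the AAGUGCU and AAAGUGC seeds. GCACUUU, at the 3′ end of 5′-arm members, was found in 7 (17.9%), in 1.22% and in 0.163%. Among the 8 tested members, 4 held UUUAGAG, 1 AAGUGC and 2 GCACUUU. Guanine and cytosine content ranged from 40.9% to 59.1% in tested members (median 48.8%) and from 31.8% to 57.1% in the others (median 45.5%).

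By hairpin arm, 12 probes read a 5′ arm, of which 4 were tested and 3 detected in all lanes. Of the 24 probes assigned to a 3′ arm 3 were tested and none was detected in all lanes. The remaining 3 were given no arm because their targets equal no RefSeq mature miRNA. Among them, miR-518f was above the limit in all lanes. It shares its seed with miR-518b and miR-518c, which were assigned to a 3′ arm. The counts by arm leave it out, so they do not show that detection differed between arms. Leaving joint probes aside, 5 miRNAs had probes named for both arms. The 5′ arm of miR-512 read 27 to 47 counts and its 3′ arm 2 to 7, with the 5′ arm higher in all 5 lanes. The order was the opposite for miR-525, at 5 to 14 counts for the 5′ arm and 13 to 34 for the 3′ arm. For miR-515 (4 to 19 against 4 to 12), miR-516a (4 to 11 against 5 to 12) and miR-520a (2 to 19 against 6 to 16) the arms overlapped, and neither passed the filter. Joint probes also read 5′ arms of hairpins whose 3′ arm was probed. The miR-526a joint target, found in MIR518D and MIR520C among others, read 30 to 64 counts. The probes for miR-518d-3p and miR-520c-3p read 7 to 21 and 3 to 7. The miR-520d-5p joint probe read 7 to 25 counts, and miR-520d-3p 4 to 9. A joint count cannot be assigned to a single hairpin.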

How the data were processed

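Raw nCounter counts per probe were used as deposited, with controls, per the file headers; the software behind them is not given in the sources used here. The authors' normalized signal, also deposited, equals the raw count times 1 factor per lane in 100.0% of human values (tolerance 0.02) and leaves viral probes unscaled. Its label names positive controls, but how the factor was computed is not stated. Scaling by this factor and by the spike-in sums gave different medians over the tested members, 0.20 and -0.07. The authors' signal served for alternatives only, on log2 values computed from it. A further 10 per-sample columns were not used. Samples were grouped by title. Controls and mRNA probes stayed out of library sizes and tests.

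The named probes follow a rule: every tested member, members above the limit in 1 lane, the 3 highest untested ones, those at the filter, and seed partners of tested members. Other members named by sequence, seed or arm were chosen after their values were seen. Members and lists were chosen with earlier results of these data known. Normalized counts are raw counts over the TMM effective library size of the tested probes, relative to its mean. edgeR 4.0.16, limma 3.58.1 and DESeq2 1.42.0 ran in R 4.3.3, and the fits were tested on simulated data. Standard errors were derived from the fold change and F. Alternatives covered scaling, test, background, filter, probes, replicate block and left-out samples. Sequences come from the deposited probe targets and RefSeq (GRCh38.p14), with T written as U.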

Additional observations from a re-analysis of the deposited data

How the results depend on the processing

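Of 22 alternatives 16 gave an adjusted p for all 8 members, and in 14 of these 0 of the 8 were called. The other 6 gave one for fewer members, none of them the miR-520d-5p or miR-520g probes. With limma at a pseudocount of 1, and without shPLEKHA7 replicate 1, 1 was called, the miR-520d-5p joint probe (0 to 1 over left-out samples). The members' median of 0.27 became -0.07 with spike-in scaling, 0.44 with background subtraction and 0.06 to 0.38 with 1 sample left out, lowest without shPLEKHA7 replicate 2, where 4 members passed the filter. Of 150 single-member values with an adjusted p, 128 kept direction and side of the threshold, 2 gained a call and 20 changed sign. Of the 7 without one, all from the DESeq2 Wald test, 6 kept their sign. For miR-518f (0.02) the sign changed with DESeq2 scaling (-0.02), deposited scaling (-0.04), spike-ins (-0.33), the DESeq2 Wald test with and without independent filtering (-0.03 in both), limma at pseudocounts of 1 (-0.05) and 10 (-0.04), no filter (-0.15), a limit passed in at least 1 sample (-0.06), and without NT replicate 3 (-0.31) or shPLEKHA7 replicate 1 (-0.12), with a range of -0.31 to 0.43 over left-out samples. For the miR-526a joint probe (0.07) it changed with deposited scaling (-0.004), spike-ins (-0.27), limma at 10 (-0.0005), no filter (-0.11), a limit passed in at least 1 sample (-0.01), and without NT replicate 1 (-0.11) or shPLEKHA7 replicate 1 (-0.13), with a range of -0.13 to 0.35 over left-out samples. Spike-in scaling gave -0.13 for miR-1283, -0.13 for miR-512-5p and -0.02 for the miR-517c joint probe. The cause was not tested.

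Over all probes, the 5 higher calls became 12 with total-count scaling, 2 with the DESeq2 Wald test (with and without independent filtering), 1 with no filter, 2 when all samples had to pass, 10 with the replicate block, 1 with shPLEKHA7 replicate 1 alone against NT (like the test without independent filtering, chosen after seeing the data) and 0 to 9 with 1 sample left out. The 8 lower calls became 2 with deposited scaling, 29 with spike-ins, 2 and 4 with limma at 1 and 10, 13 when 1 sample had to pass and 0 to 11 with 1 sample left out (1 without NT replicate 1, 0 without NT replicate 3). Members above the viral 95th percentile numbered 2 in shPLEKHA7 replicate 2 and 2 in replicate 3, against 8 and 8 above the negative-control limit. With the highest negative control as the limit, 8 members were detected in NT replicate 1 and 11 in shPLEKHA7 replicate 2. With the replicate block 0 members were called, their median was 0.22, and 10 probes were higher and 12 lower. Deviations correlated at 0.03 for replicate 1 and 0.15 for replicate 3, only 2 pairs, so the numbers were not taken to pair the samples. Counts near or below the lanes' limits, 11.0 to 24.5, restrict what could be resolved for all but the 4 members detected in every lane.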
